A study of Homo sapiens with 12 samples.

Results

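The genes described here build ribosomes. They were taken by name as a list of 44 genes of ribosome biogenesis and the nucleolus. The list was chosen with earlier results of these data known. Each of the 44 symbols was found once among the 78932 gene entries of the deposited tables. Of the 44, 43 passed a filter on low counts and were tested among 14065 genes. The exception was BOP1, a large-subunit factor with between 0 and 10 estimated counts per library, which was not tested. The list was sorted by textbook role into 4 genes of RNA polymerase I and III, 7 proteins of small nucleolar ribonucleoproteins (snoRNPs), 3 abundant nucleolar chaperones, 15 factors of the small (40S) subunit and 15 factors of the large (60S) subunit.

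RNA polymerase I transcribes the long ribosomal RNA precursor in the nucleolus, and RNA polymerase III makes the 5S ribosomal RNA outside it. Box C/D snoRNPs guide methylation of the precursor and box H/ACA snoRNPs guide its pseudouridylation, while sets of nucleases, helicases and assembly factors cut and fold it into the small and large subunits. Cells make more of these proteins when they grow, and the transcription factor MYC, which binds the E-box sequence, is a known activator of many of the genes.

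All 12 libraries were made from THP-1, a human monocytic leukaemia cell line, with 3 for each of 4 treatments. NC cells had no agent. The LPS group received LPS and ATP, a model of pyroptosis, the inflammatory cell death run by gasdermins. The CE group received LPS, ATP, CsA (cyclosporin A, a calcineurin inhibitor) and Eltrombopag (a thrombopoietin receptor agonist that also binds iron), and the CEL group received the same agents with Luspatercept, a trap for ligands of the TGF-beta family. The LPS and ATP that make the model were thus present in all groups but NC. No group had CsA or Eltrombopag alone, and none had a drug without LPS and ATP, so the effect of a drug by itself was not measured. The sources used here give no dose or time. The CE columns were matched to their group as the remaining treated group without luspatercept in its column name, so every CE value rests on that match. Nothing says whether the 3 libraries of a group came from separate cultures, so p-values measure the spread between these libraries, which may be technical. In bulk RNA, a change in the mix of cells and a change in RNA per cell cannot be told apart.

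The library totals lay between 17737240 and 23183474 estimated counts. The summed TPM (a transcript level scaled for length and depth) of 8 monocytic markers was 370 to 861 in the 12 libraries. By group it was 602 to 861 in NC, 405 to 591 in LPS, 370 to 497 in CE and 377 to 419 in CEL. MPO, a granule gene among the 8, was at no more than 0.4 TPM. Single monocytic markers moved in both directions, with log2 changes from −2.07 to 5.64 in LPS against NC. The summed TPM was 5.19 to 17.9 for 6 lymphocyte markers, 0.1 to 5.17 for 6 erythroid and platelet markers, and 0.01 to 1.73 for 7 fibroblast, epithelial and endothelial markers. The lymphocyte sum was 10.6 to 17.9 in LPS and at most 8.72 in the other groups. Of the 6 lymphocyte markers, 0 had no count in NC, 3 in LPS, 2 in CE and 2 in CEL. Of the 6 erythroid and platelet markers, 4 had no count in NC, 3 in LPS, 3 in CE and 0 in CEL. Within the treated groups, libraries differed along GC content: across 7570 genes, the correlation of a gene's deviation from its group mean with the GC content of its longest transcript was 0.41, 0.427 and 0.428 in LPS 3, CE 2 and CEL 1. It was −0.398 in LPS 2, −0.321 in CE 1, −0.52 in CE 3 and −0.456 in CEL 3, and between −0.108 and 0.078 in the other 5. Some of the values that rest on LPS 3, CE 2 or CEL 1 are given with and without them.

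The promoters of the genes were searched for motifs, which the list did not use. RefSeq windows from 250 bases before to 50 bases after the start site (build GRCh38.p14) were matched by symbol for 36 of the 44 genes. The E-box CACGTG, which reads the same on both strands, was in 14 of the 36 windows (38.9%), against 9.9% of the windows of 10033 tested genes and 7.3% of all 35116 windows. In 13 of the 36 (36.1%) an E-box began between 20 bases before and 40 bases after the start site, against 2.2% of the tested genes. That range was chosen after the positions were seen, and a match of letters is no measured binding site. The sequences below are windows of 100 bases, from 70 before to 30 after the start site, 5′ to 3′ on the gene's strand, with the E-box in capitals. The windows were chosen after the changes of the genes were seen. They show the box at the start of genes with large and small changes. NOP56, which fell strongly, has no E-box in its window. Whether an E-box goes with a change was not tested.
MRTO4 (chr1:19251735-19251834, + strand): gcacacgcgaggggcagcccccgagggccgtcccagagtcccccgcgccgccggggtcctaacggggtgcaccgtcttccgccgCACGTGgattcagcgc
UTP20 (chr12:101280035-101280134, + strand): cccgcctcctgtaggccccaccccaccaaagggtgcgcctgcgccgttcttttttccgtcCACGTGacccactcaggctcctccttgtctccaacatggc
NAT10 (chr11:34105559-34105658, + strand): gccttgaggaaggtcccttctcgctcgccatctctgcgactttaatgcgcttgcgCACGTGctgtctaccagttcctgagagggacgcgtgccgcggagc
WDR43 (chr2:28894597-28894696, + strand): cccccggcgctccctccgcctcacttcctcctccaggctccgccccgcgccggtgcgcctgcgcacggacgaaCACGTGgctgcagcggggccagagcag
FBL (chr19:39846350-39846449, - strand): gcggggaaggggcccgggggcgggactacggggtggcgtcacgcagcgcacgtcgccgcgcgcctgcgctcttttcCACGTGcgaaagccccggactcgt
PNO1 (chr2:68157818-68157917, + strand): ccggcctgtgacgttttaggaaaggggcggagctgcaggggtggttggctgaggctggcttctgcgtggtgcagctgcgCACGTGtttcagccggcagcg
NOP14 (chr4:2963377-2963476, - strand): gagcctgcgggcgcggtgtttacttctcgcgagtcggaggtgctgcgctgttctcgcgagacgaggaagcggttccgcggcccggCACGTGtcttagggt
NOP56 (chr20:2652562-2652661, + strand): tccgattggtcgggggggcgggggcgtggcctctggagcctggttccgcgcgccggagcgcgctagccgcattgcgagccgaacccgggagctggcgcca

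Other motifs were searched on both strands of the same 300-base windows. The ETS motif CCGGAAG was in 27.8% of the 36 windows, 19.9% of the tested genes' windows and 10.3% of all windows. In the same order, CCAAT was in 33.3%, 37.4% and 34.6%, and the palindromic NRF1 motif was in 8.3%, 2.4% and 1.2%. The NRF1 count was 3 genes, namely DKC1, DDX10 and NOB1.

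The 44 genes spanned a wide range of transcript levels, compared here as mean TPM over the 12 libraries. NPM1 (nucleophosmin, a histone and ribosomal protein chaperone) was highest at 1716 TPM, followed by NCL (nucleolin, which binds the nascent precursor) at 819 TPM, FBL (fibrillarin, the box C/D methyltransferase) at 255 TPM and NOP56 (a box C/D core protein) at 228 TPM. At the other end stood RRP9 (a protein of the U3 snoRNP) at 3.14 TPM, RRP12 at 2.83 TPM, PPAN at 1.87 TPM and BOP1 at 0.199 TPM. Of these, NPM1 has 45 named pseudogenes, which could take or lend reads. PPAN shares 59.8% of its exonic bases with same-strand genes, among them the readthrough PPAN-P2RY11, and NOP2 shares 54.4% with a same-strand gene. LTV1 shares 34.8% with same-strand genes. IMP3 shares 59.3% of its exonic bases with genes on the opposite strand. Smaller opposite-strand overlaps include those of NHP2 (27.4%), HEATR1 (23.2%) and POLR1C (18.2%). No source used here gives the strand setting of the counting. The values of NPM1, PPAN, NOP2, LTV1 and IMP3 are uncertain for these reasons, and those of genes with smaller overlaps may be. Of the genes described most fully, NOP56 lies at chr20:2652145-2658393, NCL at chr2:231453531-231483641, DDX21 at chr10:68956128-68985073 and POLR1C at chr6:43509702-43562419 (GRCh38, GENCODE v29).

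**Figure D1:**
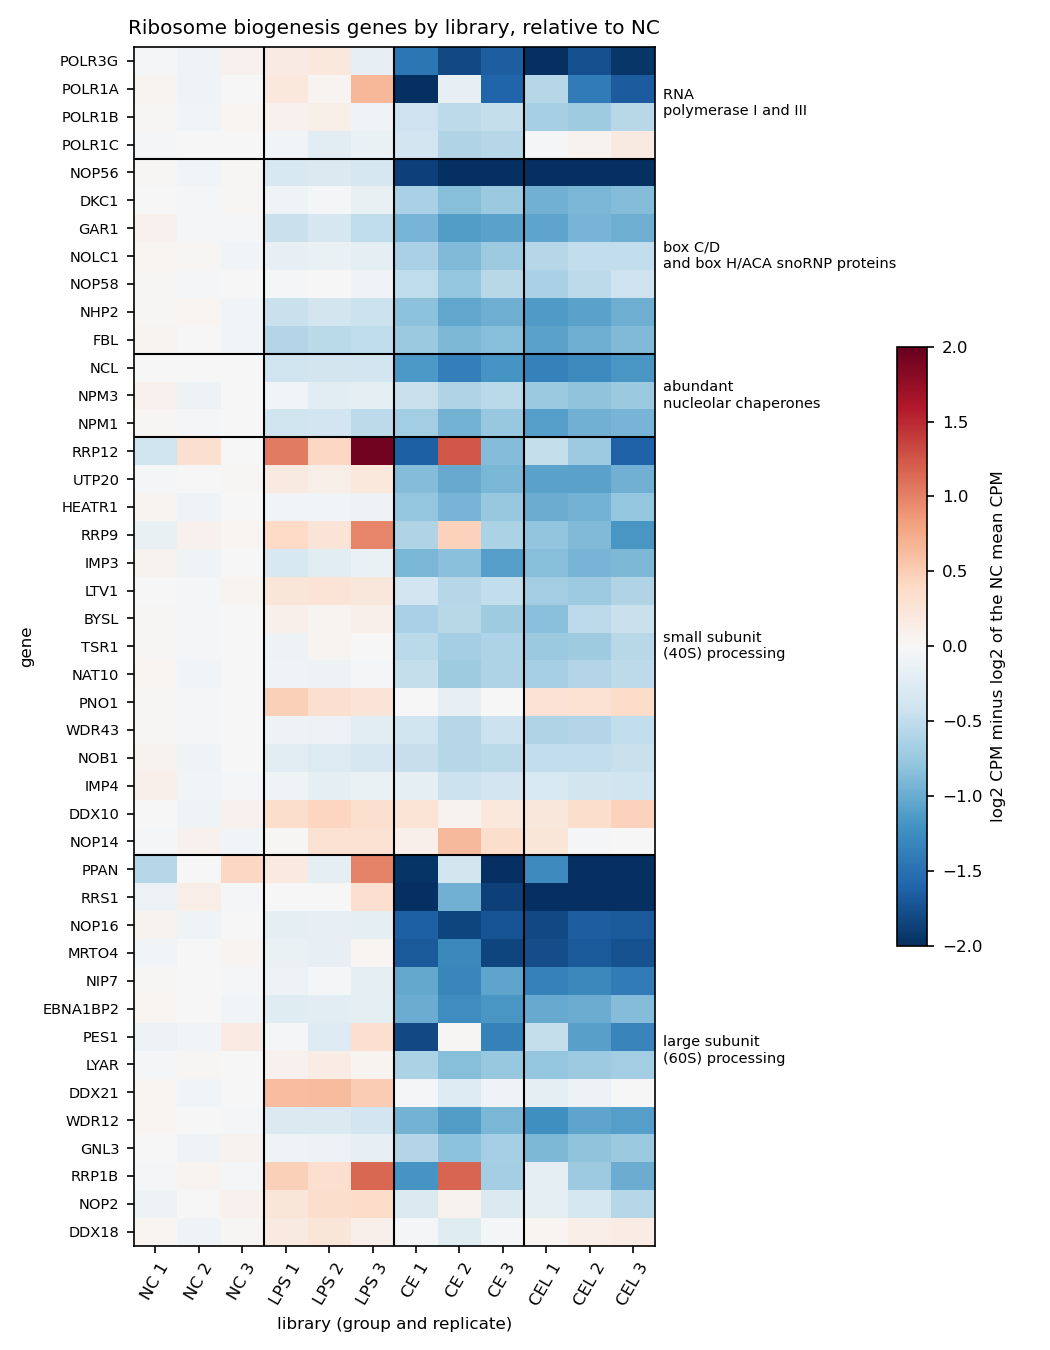
Level of each of the 43 tested genes (rows, grouped by role) in each of the 12 libraries (columns), as log2 CPM minus log2 of the mean CPM of the 3 NC libraries; colours end at 2 and −2. The CE and CEL columns are blue for most genes, with CE 2 red for RRP12, RRP1B and RRP9.

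The first comparison, LPS against NC, asked what LPS with ATP did to these genes, which went in both directions. Of the 43 tested, 7 rose, 12 fell and 24 did not pass the test (adjusted p under 0.05, edgeR quasi-likelihood test with Benjamini-Hochberg adjustment over all 14065 genes). The shares of all tested genes called were 22.4% higher and 23.5% lower. The median log2 change of the 43 genes was −0.07 and that of all tested genes was −0.01. The groups did not overlap for 30 of the 43 genes, against 62.5% of all tested genes. None of the genes that passed fell by 2-fold, while 6.26% of all tested genes were lower by 2-fold or more. None that passed rose by 2-fold either, and the share of all tested genes with such a rise was not counted.

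The snoRNP proteins and chaperones held 7 of the 12 falls. Of the 7 snoRNP proteins, 5 fell and none rose: FBL, NOP56, GAR1 and NHP2 (both in the box H/ACA core) and NOLC1 (a snoRNP chaperone of the nucleolus and Cajal body). DKC1 (the pseudouridine synthase dyskerin) and NOP58 (a box C/D core protein) did not pass, with log2 changes of −0.09 and −0.03. FBL was 212, 202 and 197 CPM (estimated counts scaled to library size after TMM normalization) in the NC libraries and 136, 140 and 143 CPM in the LPS libraries, with no overlap. It fell by 0.54 on the log2 scale (SE 0.06, adjusted p = 1.47e-05). NPM1, of the chaperones, was 2145, 2051 and 2126 CPM in NC and 1596, 1623 and 1464 CPM in LPS. Its log2 change was −0.43 (SE 0.07, adjusted p = 0.000624), again with the groups apart. NCL, from 2513, 2478 and 2478 CPM to 1895, 1933 and 1908 CPM, fell by 0.38 on the log2 scale. NPM3, a chaperone related to NPM1, did not pass (log2 change −0.15, adjusted p = 0.11).

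The subunit factors held all 7 rises and 5 of the 12 falls; no difference between roles was tested. DDX21, an RNA helicase that acts at both the polymerase I and polymerase II templates, was 524, 491 and 512 CPM in NC and 777, 787 and 726 CPM in LPS. All 3 LPS libraries stood above all 3 NC libraries, a rise of 0.58 on the log2 scale (1.5-fold, SE 0.07, adjusted p = 3.55e-05), and DDX21 passed in all 17 alternatives tried. DDX10, a helicase of the small subunit, was 53.5, 50.8 and 57.2 CPM in NC and 68.6, 72.1 and 67.4 CPM in LPS. It rose by 0.37 (SE 0.08, adjusted p = 0.0022). PNO1, a placeholder on the late small subunit, rose by 0.35, from 37.9, 36.6 and 37.2 CPM to 51.7, 46.6 and 44.5 CPM. LTV1, a small-subunit export factor, rose by 0.25, from 136, 134 and 142 CPM to 162, 166 and 162 CPM. The other rises were NOP2 (an RNA methyltransferase of the large subunit) at 0.32, DDX18 at 0.18 and UTP20 (a scaffold protein of the small-subunit processome) at 0.17. The other falls, between 0.15 and 0.31 in size, were WDR12 and EBNA1BP2 of the large subunit and NOB1 (the nuclease of the last small-subunit cut), IMP3 and WDR43 of the small subunit. None of the 4 polymerase genes passed, with log2 changes from −0.13 for POLR1C, at 47.1, 48.2 and 48.2 CPM in NC and 45.8, 41.1 and 43.8 CPM in LPS, to 0.33 for POLR1A. GNL3 (nucleostemin), the large-subunit factor with the highest TPM, was 264, 254 and 279 CPM in NC and 252, 246 and 237 CPM in LPS and did not pass (log2 change −0.12).

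The smaller of these changes rested on single libraries or settings, and the larger falls also depended on the method. LTV1 did not pass without LPS 2 (adjusted p = 0.0574). DDX18 did not pass without NC 1, NC 2, NC 3, LPS 1 or LPS 2 (adjusted p up to 0.322), and neither did UTP20 without any 1 of the same 5 libraries (up to 0.152). NOP2 did not pass without NC 1, NC 2, NC 3, LPS 2 or LPS 3 (up to 0.129), IMP3 without NC 1, NC 3, LPS 1 or LPS 2 (up to 0.173), and EBNA1BP2 without NC 1, NC 2, LPS 1 or LPS 2 (up to 0.0709). NOLC1 and WDR43 did not pass without any 1 of the 6 libraries (adjusted p up to 0.112 and 0.188). So the count of rises was 4 without any 1 of the NC libraries (2638 to 2863 over all tested genes) and 3 without LPS 2 (2630). With the batch number of the labels as a block, 5 rose and 9 fell (2977 and 3015 of all 14065 tested genes). NOLC1 (adjusted p = 0.0546), WDR43 (0.0635), IMP3 (0.0739), NOP2 (0.0521) and DDX18 (0.0659) no longer passed. Upper quartile scaling, which moved the median change of all genes by −0.11, gave 3 rises and 19 falls. Of all 14065 tested genes, 2604 rose and 4387 fell under it. Tested as log2(TPM + 1) with limma, 2 genes rose and none fell, so that FBL and NPM1 did not pass either. Over all tested genes that fit gave 2070 rises and 893 falls. NCL and NOP56 also did not pass with no filter on low counts. The summed TPM of the genes was low in NC 3 (5031) and LPS 1 (4682), the libraries with most nuclear ribosomal RNA (0.173% and 0.128% of estimated counts, against at most 0.000563% elsewhere), and the part of that RNA in the loss of calls was not tested.

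**Figure D2:**
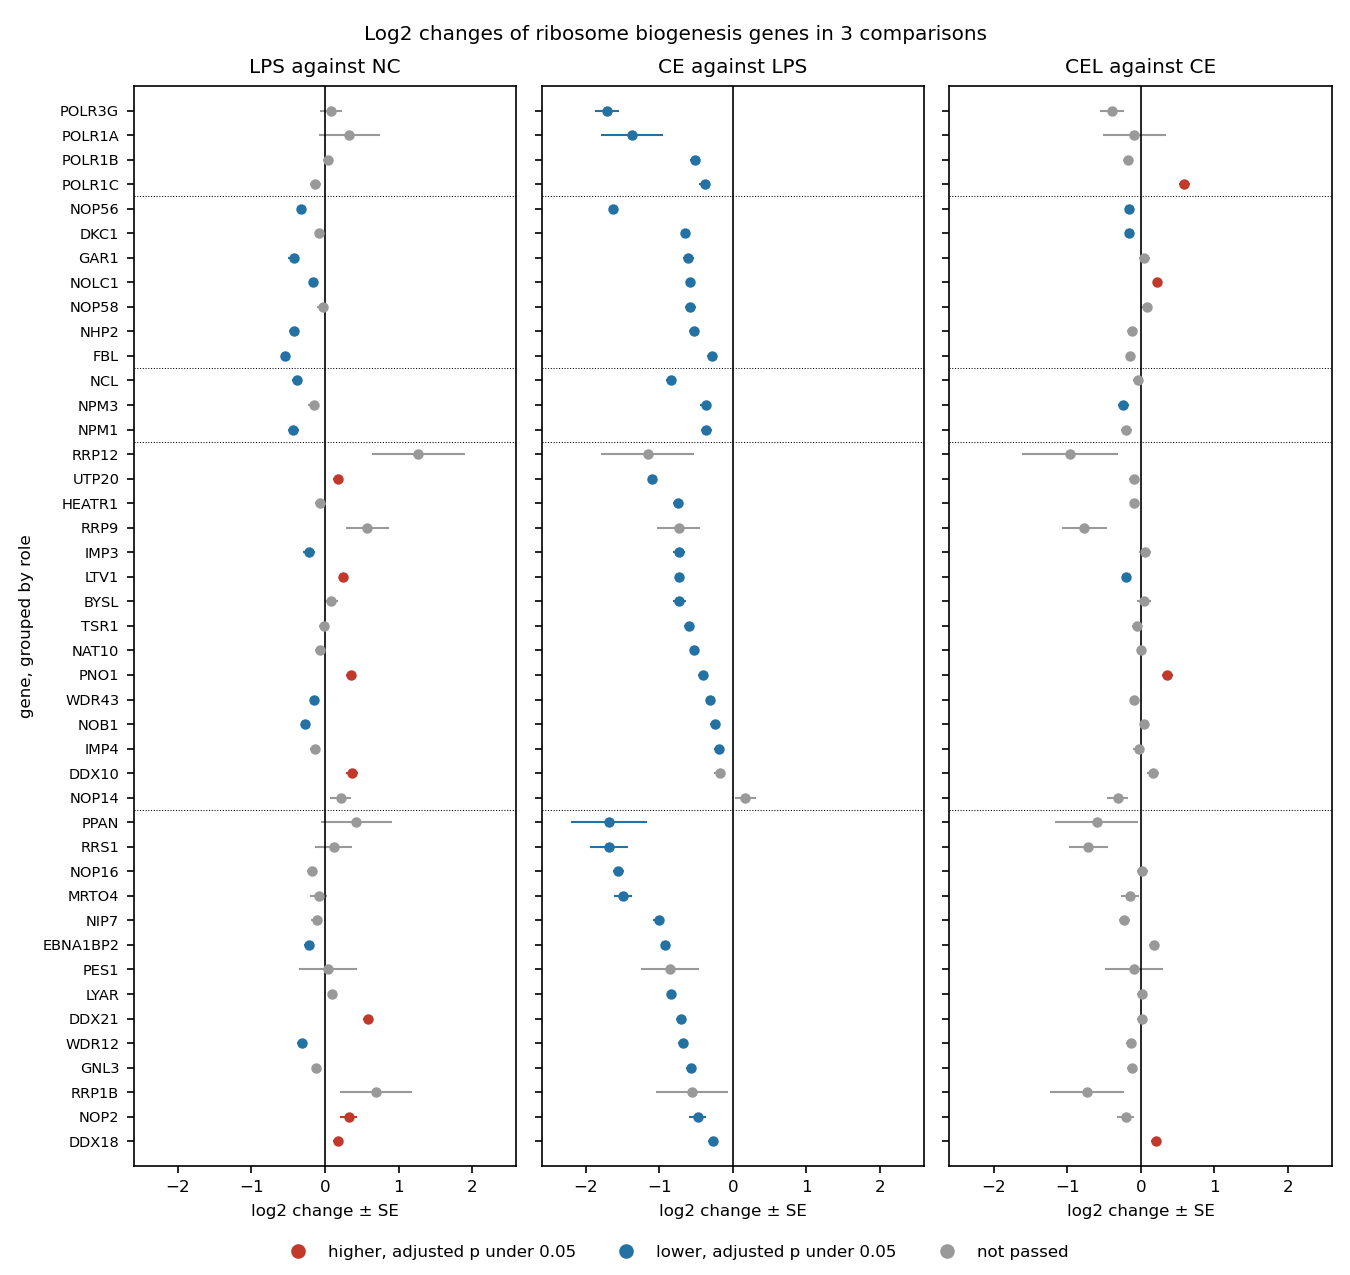
Log2 change with its SE (horizontal bars) for each of the 43 tested genes, grouped by role, in LPS against NC, CE against LPS and CEL against CE. In CE against LPS 37 genes lie to the left of 0 and passed, while the other panels scatter about 0.

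In the second comparison, CE against LPS, the effect of CsA with Eltrombopag within the model, most of the genes fell together. Of the 43, 37 fell, none rose and 6 did not pass, where 20.7% of all tested genes were called lower and 28.8% higher. The median log2 change was −0.66, beside 0.08 over all tested genes. Among these falls, 9 were 2-fold or more, against 7.44% of all tested genes. The groups did not overlap for 37 of the 43 genes (54.6% of all tested genes). The summed CPM of the 43 genes was 7854 ± 159 in LPS and 5073 ± 320 in CE (SD, n = 3 each), and it was 8935 ± 151 in NC.

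**Figure D3:**
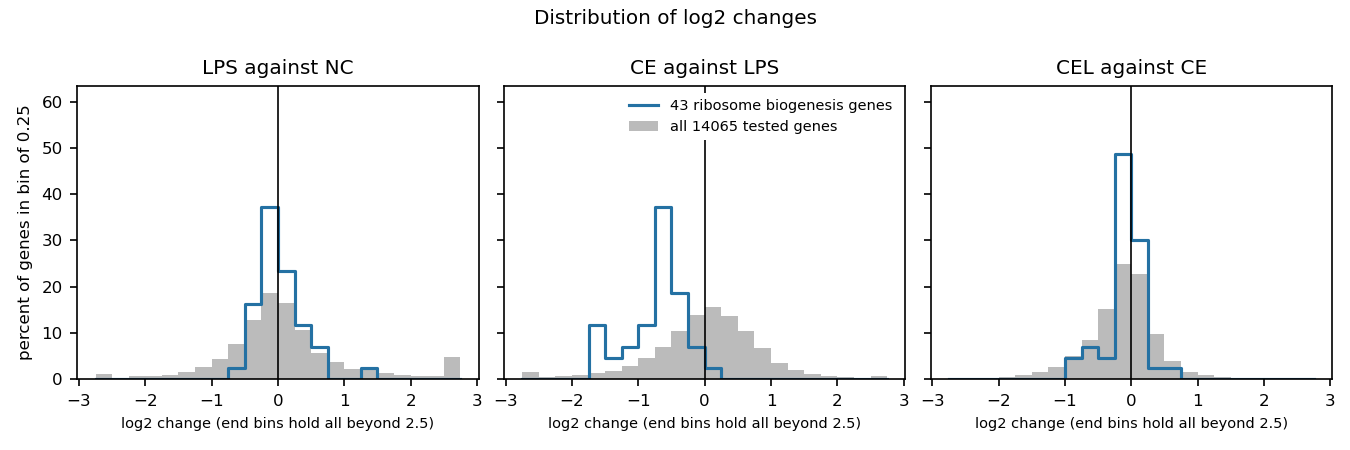
Share of genes (percent) in bins of log2 change 0.25 wide for the 43 ribosome biogenesis genes (line) and all 14065 tested genes (grey bars) in 3 comparisons. In CE against LPS the line sits to the left of the bars, with medians of −0.66 and 0.08.

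All 4 polymerase genes fell. POLR3G, a subunit of RNA polymerase III that is high in dividing and stem cells, was 21.7, 22.5 and 17.4 CPM in LPS and 7.09, 5.54 and 6.22 CPM in CE. The CE libraries were all below the LPS libraries, and the log2 change was −1.71 (3.27-fold lower, SE 0.16, adjusted p = 4.82e-06). POLR1A, the largest subunit of RNA polymerase I, had a log2 change of −1.37 with a wide SE of 0.43. It was 18.3, 16.4 and 24.95 CPM in LPS and 3.74, 14.1 and 5.20 CPM in CE, and it did not pass without LPS 3 or CE 3 (adjusted p up to 0.0784). POLR1B, the other catalytic subunit, fell by 0.51 and POLR1C, shared by polymerases I and III, fell by 0.38. POLR1C was 45.8, 41.1 and 43.8 CPM in LPS and 36.7, 31.4 and 32.3 CPM in CE.

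All 7 snoRNP proteins fell, NOP56 far more than the rest. NOP56 was 248, 253 and 245 CPM in LPS and 85.0, 77.4 and 78.2 CPM in CE, a log2 change of −1.63 (3.1-fold lower, SE 0.05, adjusted p = 6.63e-10). The other 6 lay between −0.66 for DKC1 and −0.29 for FBL, which was 121, 109 and 113 CPM in CE. NOP58, the partner of NOP56 in the box C/D core, fell by 0.58. NOLC1 was 304, 309 and 295 CPM in LPS and 217, 184 and 205 CPM in CE.

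All 3 chaperones fell. NCL was 1119, 968 and 1102 CPM in CE, which was below every LPS library, with a log2 change of −0.85 (1.8-fold lower, SE 0.07, adjusted p = 1.1e-06). NPM1 was 1307, 1097 and 1243 CPM in CE and fell by 0.36. NPM3 was 26.8, 24.0 and 24.6 CPM in LPS and 20.6, 18.4 and 19.2 CPM in CE, a fall of 0.37.

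Of the 15 small-subunit factors, 11 fell. UTP20 was 70.1, 67.4 and 71.9 CPM in LPS and 33.9, 30.8 and 33.0 CPM in CE, with a log2 change of −1.10 (2.15-fold lower, SE 0.06, adjusted p = 4.36e-08). HEATR1, which acts early in the processome and in polymerase I transcription, fell by 0.75. LTV1 fell by 0.73 to 106, 92.5 and 97.8 CPM, and BYSL (bystin, a late small-subunit factor) also by 0.73. NAT10, an RNA acetyltransferase, fell by 0.53, and PNO1 fell by 0.40 to 37.3, 33.3 and 37.5 CPM, near its NC values. IMP4, of the U3 snoRNP, had the smallest fall (0.19, adjusted p = 0.0463), with overlapping groups, and it did not pass without LPS 1, LPS 2, LPS 3, CE 2 or CE 3 (adjusted p up to 0.189). Those that did not pass were RRP12 (log2 change −1.16), RRP9 (−0.74), DDX10 (−0.18) and NOP14 (0.17). DDX10 was 64.9, 56.3 and 62.4 CPM in CE and passed only without CE 1 among the libraries left out (adjusted p = 0.0334).

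Of the 14 tested large-subunit factors, 12 fell, 5 of them by 2-fold or more. PPAN (a homologue of yeast Ssf1) had a log2 change of −1.68 (3.21-fold lower, SE 0.52, adjusted p = 0.0181) at very low levels. It was 2.41, 1.85 and 4.17 CPM in LPS and 0.541, 1.64 and 0.434 CPM in CE, and did not pass without LPS 3, CE 1 or CE 3 (adjusted p up to 0.0922). The next 3 stood on more reads. RRS1, which brings the 5S particle to the large subunit, also had a log2 change of −1.68. RRS1 was 7.19, 16.3 and 8.72 CPM in CE, with CE 2 the high value. Its log2 change ran from −2.10 to −1.51 over the 17 alternatives and passed in all of them. NOP16 had a log2 change of −1.56, from 56.3, 57.3 and 56.9 CPM to 20.7, 17.9 and 19.4 CPM. MRTO4, a placeholder at the stalk site, had −1.50, from 39.2, 38.5 and 44.04 CPM to 13.4, 17.7 and 12.1 CPM. NIP7 fell by 1.01 and EBNA1BP2 by 0.92. DDX21 fell by 0.70 to 502, 423 and 485 CPM, and GNL3 was 252, 246 and 237 CPM in LPS and 177, 151 and 167 CPM in CE, a fall of 0.57. The smallest fall was that of DDX18 (0.27), from 260, 270 and 244 CPM to 224, 193 and 225 CPM, which did not pass without LPS 2 (adjusted p = 0.0523). PES1 (log2 change −0.86) and RRP1B (−0.56) did not pass.

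The count of falls stayed within 34 to 40 of 43 when each library was left out in turn, and it was 37 with the batch number as a block. Over all tested genes the falls numbered 2517 to 3896 and 2751 in these fits. Scaling by upper quartile factors moved the median change of all genes by −0.17 and scaling by library size alone by −0.15. The counts of falls were then 40 and 39, where 4000 and 3833 of all 14065 tested genes fell. The share of all called genes that were higher was 58.2% in the reported fit, 42.4% with upper quartile factors and 44.2% with library size alone.

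**Figure D4:**
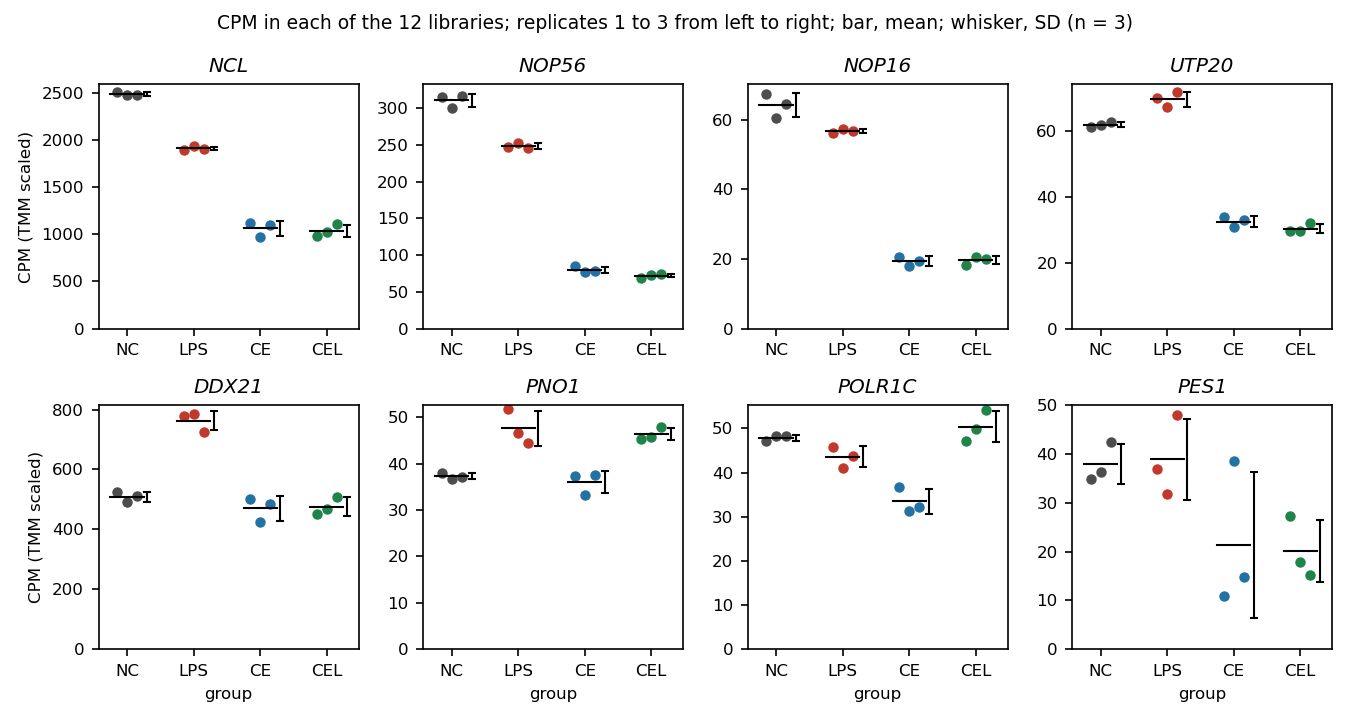
CPM of 8 genes in each of the 12 libraries (points, coloured by group), with the group mean (line) and SD (whisker, n = 3); the y axes start at 0. NCL, NOP56, NOP16 and UTP20 were low in both drug groups, DDX21 was high in LPS alone, PNO1 and POLR1C were higher in CEL than in CE, and PES1 had 1 high CE library.

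Several of the genes that did not pass had 1 high value in CE, that of library CE 2. PES1, of the PeBoW complex of the large subunit, was 37.0, 31.8 and 48.0 CPM in LPS and 10.8, 38.6 and 14.9 CPM in CE, with CE 2 the high value. RRP1B was 21.6, 19.5 and 34.1 CPM in LPS and 6.79, 34.7 and 9.69 CPM in CE. RRP12, an export factor, was 8.84, 5.73 and 16.3 CPM in LPS and 1.38, 10.1 and 2.36 CPM in CE. These genes are shown because of their spread, and were chosen after their values were seen. Without CE 2, the log2 changes against LPS were −1.59 for PES1 (adjusted p = 0.000286), −1.59 for RRP1B (0.000565), −2.45 for RRP12 (0.00116) and −1.19 for RRP9 (0.00102, which also passed without LPS 2), and that of POLR1A was −2.14 (0.000118). The count of falls was then 40 of 43 (3896 of all 14625 tested genes). It was also 40 with LPS 3, CE 2 and CEL 1 left out together (3714 of 14376).

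The spread within CE went in part with GC content among these genes. Across the 43 genes, which are not independent replicates, the correlation of the deviation from the group mean with GC content was 0.548 in CE 2, −0.46 in CE 1 and −0.671 in CE 3. As the deviations cancel within the group, these values are not independent of each other. In CE 2, the 10 genes at 55% GC or more had a median deviation of 0.44 on the log2 scale and the 33 under 55% had −0.11. Not every wide deviation lay at high GC content: RRP1B and POLR1A, at 50.6% and 51.7% GC, deviated by 1.35 and 1.05 in CE 2. The correlation was 0.638 in LPS 3 and 0.535 in CEL 1. With an offset that removed each library's trend on GC content, 35 of the 43 genes fell in CE against LPS and none rose. Of all 13247 genes in that fit, 2904 fell and 3737 rose. What set these libraries apart was not tested.

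**Figure D5:**
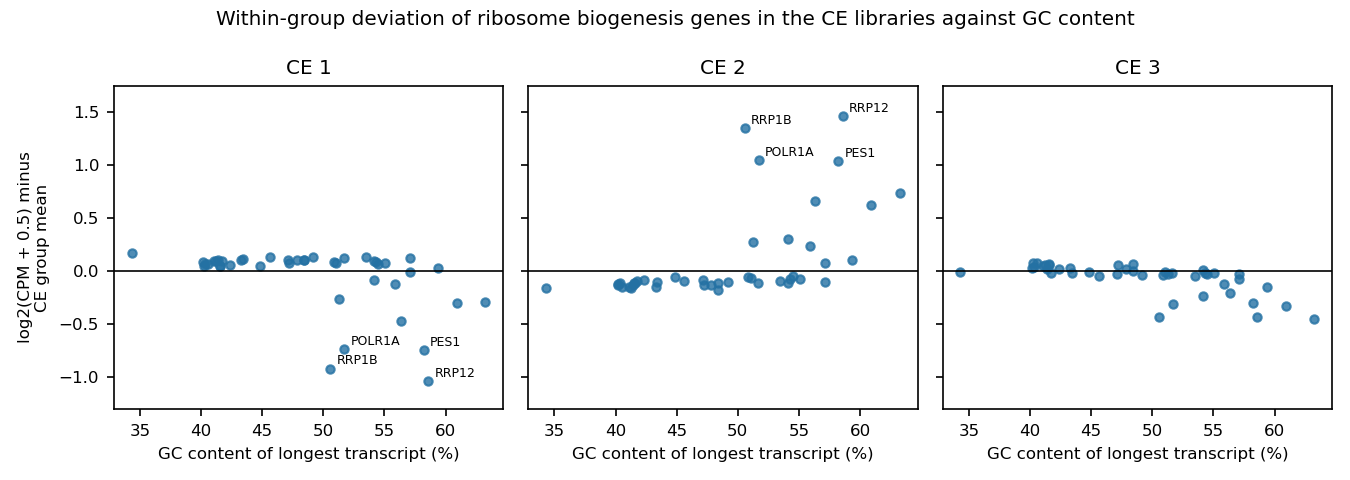
Deviation of each of the 43 genes from its CE group mean, as log2(CPM + 0.5), against the GC content (percent) of its longest transcript in the 3 CE libraries. The 10 genes at 55% GC or more have a median deviation of 0.44 in CE 2, −0.21 in CE 1 and −0.17 in CE 3, with genes such as NHP2 and NPM3 going the other way in CE 2.

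The third comparison, CEL against CE, gives what Luspatercept added to the other agents. Of the 43 genes, 4 rose (9.3%), 4 fell (9.3%) and 35 did not pass. Of all tested genes, 8.78% were called higher and 14.8% lower, so few calls were not particular to this list. The median log2 change was −0.09 for the 43 genes and −0.09 for all tested genes, and the groups did not overlap for 10 of the 43 (34.7% of all tested genes). None fell by 2-fold, a size that 2.47% of all tested genes reached. Among the 8 genes that passed, POLR1C had the widest change. It was 47.2, 49.95 and 54.1 CPM in CEL, above the 31.4 to 36.7 CPM of the CE libraries, with a log2 change of 0.59 (1.51-fold, SE 0.07, adjusted p = 0.000217). PNO1 was 45.4, 45.8 and 47.8 CPM in CEL, also above every CE library, and rose by 0.36 (SE 0.07, adjusted p = 0.00292). Both passed whichever library was left out. With limma on log2(TPM + 1), neither these nor any other of the 43 genes passed, and PNO1 also did not pass with no filter on low counts.

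The most abundant snoRNP protein, chaperone and large-subunit factor did not pass in CEL against CE. FBL was 96.7, 103 and 111 CPM in CEL and NPM1 was 983, 1085 and 1109 CPM, and both overlapped CE. GNL3 was 143, 153 and 158 CPM, also overlapping CE. All 3 passed as lower without CE 2 (adjusted p up to 0.0352), and FBL also without CEL 3 (0.0422).

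The other 6 calls were smaller and less firm. NOLC1 rose by 0.22 to 228, 240 and 241 CPM in CEL, and did not pass without CEL 1 or CEL 2 (adjusted p up to 0.0689). DDX18 rose by 0.21 to 236, 251 and 254 CPM, and did not pass without CE 2 or any 1 CEL library (up to 0.125). NPM3 fell by 0.24 to 16.7, 16.0 and 16.8 CPM, and DKC1 fell by 0.16, and both passed only without CE 2 among the libraries left out (up to 0.389 and 0.747). LTV1 fell by 0.20 to 85.1, 82.6 and 90.9 CPM, and NOP56 fell by 0.16 to 69.3, 72.6 and 74.0 CPM. Neither passed without CE 1, CE 3, CEL 1 or CEL 2 (up to 0.501 and 0.666). The count of falls was 11 without CE 2, where 2459 of all 14625 tested genes fell. It was 1 without CE 1 (1367 of 14728) and 0 without CE 3 (1145 of 14723). It was also 0 without CEL 1 (1142 of 14688) or CEL 2 (1098 of 14646). With LPS 3, CE 2 and CEL 1 left out together it was 9 (2291 of 14376). The count of rises was 2 without CEL 1 (1023 of 14688) or CEL 2 (1022 of 14646). With the batch number as a block, 3 rose and 2 fell (1035 and 1768 of all 14065 tested genes). NOP56 (adjusted p = 0.0601), DKC1 (0.0889) and DDX18 (0.0644) no longer passed. None fell under upper quartile factors or under relative log expression factors, where 1774 and 1485 of all 14065 tested genes fell.

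Against LPS, the 3-drug group CEL resembled CE in its counts, with 37 falls, 1 rise and 5 not passed (27.2% of all tested genes lower and 28.7% higher). The median log2 change was −0.69, beside −0.03 over all tested genes, and 12 of the falls were 2-fold or more (12.2% of all tested genes). The groups did not overlap for 39 of the 43 genes (65.5% of all tested genes). CEL and CE are compared with the same LPS libraries, so these counts are not independent of those for CE. The widest falls were RRS1 (log2 change −2.39, from 31.8, 31.5 and 39.96 CPM in LPS to 7.92, 5.46 and 6.23 CPM), PPAN (−2.28), RRP12 (−2.12) and POLR3G (−2.09, to 3.68, 5.71 and 5.05 CPM in CEL). RRP12, RRP9 (−1.51) and RRP1B (−1.29), which did not pass in CE against LPS, passed here, but in CEL against CE their log2 changes of −0.96, −0.77 and −0.73 did not pass (adjusted p = 0.334, 0.0988 and 0.335). RRP12 did not pass without LPS 3 or CEL 3 (adjusted p up to 0.0805), POLR1A (−1.46) without LPS 3, CEL 2 or CEL 3 (up to 0.0579), and RRP1B without LPS 1, LPS 2, LPS 3, CEL 2 or CEL 3 (up to 0.17) or with the batch number as a block (0.0665). The rise was POLR1C (0.21, adjusted p = 0.0308), which did not pass without LPS 2 or CEL 3 (up to 0.116) and passed in 7 of 17 alternatives. IMP4 (−0.22) did not pass without any 1 of the 6 libraries (up to 0.236), nor NOB1 (−0.20) without LPS 2, CEL 1 or CEL 2 (up to 0.167), while PES1 (−0.95, adjusted p = 0.061) passed without CEL 1 (0.0348). DDX10, DDX18, PNO1 and NOP14 lay between −0.14 and −0.01 and did not pass.

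Both treated groups also stood below untreated cells, with the same NC libraries in each comparison. In CE against NC, 31 of the 43 genes fell, 1 rose and 11 did not pass (29.4% of all tested genes lower and 34.6% higher), with a median log2 change of −0.74 beside 0.09 over all tested genes. The groups did not overlap for 33 genes (67.1% of all tested genes), and 9 fell by 2-fold or more (13.3%). In CEL against NC, 34 fell, 2 rose and 7 did not pass (33% lower and 34% higher), with a median of −0.85 beside 0.0036. The groups did not overlap for 40 genes (75.8%), and 12 fell by 2-fold or more (17.4%). NOP56 was furthest below among those with high levels, with log2 changes of −1.95 in CE and −2.11 in CEL, 3.87-fold and 4.31-fold lower than NC. NCL had log2 changes of −1.23 and −1.26, and NPM1 had −0.79 and −0.99. DDX21, high in LPS, did not pass against NC in CE (−0.12) or CEL (−0.10), though it passed in CE without CE 1 (−0.21, adjusted p = 0.0438). The rise in CE was NOP14 (0.38, adjusted p = 0.0359), which did not pass without NC 1, NC 2, NC 3, CE 2 or CE 3 (up to 0.131). The rises in CEL were DDX10 (0.35, from 53.5, 50.8 and 57.2 CPM to 63.0, 68.8 and 74.1 CPM) and PNO1 (0.31). In CEL, POLR1A (−1.13) did not pass without any 1 NC library, CEL 2 or CEL 3 (adjusted p up to 0.129) or with the batch number as a block (0.0572), RRP9 (−0.93) not without NC 2 or CEL 3 (up to 0.0674), and NOP2 (−0.36) not without NC 3 or CEL 3 (up to 0.0705). Without CE 2, the count of falls in CE against NC was 37, where 4594 of all 14625 tested genes fell.

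The changes were also set out by the E-box. In CE against LPS, the 14 genes with an E-box had a median log2 change of −0.63, 11 of them called lower, and the 22 without had −0.67, 21 of them called lower. The medians with and without were 0.06 and −0.13 in LPS against NC, −0.54 and −0.81 in CE against NC, −0.63 and −0.91 in CEL against NC, −0.68 and −0.69 in CEL against LPS, and −0.10 and −0.09 in CEL against CE. MRTO4 and NOP14, whose windows are printed above with an E-box within 20 bases of the start, had log2 changes of −1.50 and 0.17. No test was made of these differences.

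A wider list of 92 other genes of the pathway, of which 89 were tested, moved less uniformly. Both lists were chosen with earlier results of these data known, and no difference between them was tested. In CE against LPS, 44 of the 89 fell (20.7% of all tested genes), 12 rose (28.8%) and 33 did not pass. By role, 5 of 11 other polymerase I genes fell and 4 rose, 20 of 34 other small-subunit factors fell and 2 rose, and 19 of 44 other large-subunit factors fell and 6 rose. The widest falls were POLR1G (a polymerase I subunit, log2 change −1.44, at 1.46 CPM in CE, not passing without LPS 1, LPS 3 or CE 3 with adjusted p up to 0.0912), RRP7A (−1.32) and RRP1 (−1.13). The widest rises were RSL24D1 (a large-subunit factor, 0.85), TAF1D (of the polymerase I selectivity factor, 0.68) and UTP25 (0.37). In LPS against NC, 18 of the 89 rose (22.4% of all tested genes) and 12 fell (23.5%), led by TAF1A (0.62) and RSL24D1 (−0.42). In CEL against CE, 10 rose (8.78%) and 4 fell (14.8%), led by RPF2 (0.38) and LAS1L (−0.41).

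MYC and its partners were measured beside them. MYC was 56.4, 64.3 and 60.3 CPM in NC and 35.0, 32.6 and 45.5 CPM in LPS, a log2 change of −0.68 that did not pass (adjusted p = 0.0665), though the groups did not overlap. That call depended on the method: it passed in 7 of 17 alternatives, among them DESeq2, relative log expression factors and upper quartile factors. In CE, MYC was 17.0, 38.2 and 17.4 CPM, with CE 2 again the high value. The log2 change against LPS was −0.64 (adjusted p = 0.0808), and −1.12 without CE 2 (adjusted p = 0.000193). It too passed in 7 of 17 alternatives, among them the same 3 with all libraries kept. In CEL, MYC was 15.8, 11.8 and 10.7 CPM, lower than LPS by 1.56 on the log2 scale (2.95-fold, adjusted p = 0.000675). Against CE it had a log2 change of −0.92 (adjusted p = 0.0375), which did not pass without CE 2, CEL 2 or CEL 3 (up to 0.14) or with the batch number as a block (0.0762). MXD1 competes with MYC for its partner MAX and represses from the same E-boxes. It rose in LPS against NC and in CE against LPS, where MYC did not pass in the reported fit. Whether MYC or MXD1 bears on the ribosome biogenesis genes was not tested. MXD1 was 8.72, 9.41 and 10.1 CPM in NC, 38.6, 37.4 and 35.3 CPM in LPS and 86.0, 95.9 and 93.0 CPM in CE. It rose by 1.98 in LPS against NC (adjusted p = 8.98e-10) and by 1.31 in CE against LPS (adjusted p = 4.34e-08), and passed in all 17 alternatives of each. Of the 9 tested MYC network genes, 5 rose in CE against LPS (MAX, MXD1, MXI1, MGA and MLX) and none fell. Of all tested genes, 28.8% were called higher and 20.7% lower in that comparison. MXI1, a relative of MXD1, fell by 0.91 in LPS against NC and rose by 1.23 in CE against LPS.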

How the data were processed

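Poly(A) RNA of THP-1 cells was isolated with oligo-dT beads after an integrity check on agarose gels, per the labels' protocols, in 12 libraries of 4 groups. The authors deposited estimated counts and TPM values per gene. The genome build was hg38, per the submitters' processing notes. No source used here states the aligner, the counter, the annotation, any filter or the strand setting. The counts are estimates, as 29.3% of the non-zero values lay more than 0.005 from a whole number, and they were rounded for testing. Totals were 17737240 to 23183474 per library.

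Genes were tested with edgeR 4.0.16 in R 4.3.3 (TMM factors, filterByExpr, 4 groups in 1 quasi-likelihood fit, two-sided, Benjamini-Hochberg adjustment over 14065 genes, called at adjusted p under 0.05). Each SE is the size of the log2 change divided by the square root of F. On simulated data the fit missed part of the smaller changes, and the pass mark of that check was lowered after a first run. Alternatives were other scalings, no filter, a block, only the groups compared, DESeq2 1.42.0, limma 3.58.1 on log2(TPM + 1) and log2(TPM + 0.1), and each library left out. An offset for GC content, and leaving out LPS 3, CE 2 and CEL 1 together, were added after seeing the data. GC content and gene overlap came from GENCODE v29 on GRCh38. GC content was known for 13247 of the tested genes.

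The labels give a batch number, 1 to 3, that equals the replicate number, so each batch holds 1 library per group and the numbers were taken to pair the libraries. Over 7675 genes, 7 of 18 same-numbered pairs had a correlation of deviations above 0.1 (lowest −0.843, highest 0.697). A single batch gives no replicates, so the block is the fit with batch as a term.

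The members, the other lists, the tests and the naming rule were chosen with earlier results of these data known. Any member may be named. Values in every library of the groups compared were given, in each role and in LPS against NC, CE against LPS and CEL against CE, for the called member with the widest change and for the member with the highest mean TPM, and for MYC. In the other lists the called genes with the widest rise and fall could be named. Values in every library for POLR1A, RRS1, NOP16, MRTO4, PES1, RRP1B, RRP12 and MXD1 were chosen after their values were seen. So were the other list genes given in the closing section and the promoter windows printed. MAX, MGA, MLX and MXI1 were named in CE against LPS outside this rule, because they passed there.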

Additional observations from a re-analysis of the deposited data

How the results depend on the processing

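In CE against LPS, 25 to 40 of the genes fell and none rose in every alternative run. Over all tested genes the falls numbered 1340 to 4000. Of 4386 gene values under alternatives, 3877 kept their direction or lay below the threshold in both fits (170 of these changed sign with neither value passing), 353 no longer passed, 147 newly passed and 9 changed direction. The reasons were not tested. PPAN, at 8 to 94 estimated counts per library, and RRP12, at 26 to 368, had wide SEs, and BOP1 was too low to test; the part of depth was not tested.

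With relative log expression factors, none rose in CEL against LPS and 0 fell in CEL against CE. With upper quartile factors the median changes were −0.18 (LPS against NC, 3 rises and 19 falls), −0.83 (CE against LPS), −0.82 (CEL against LPS, 0 rises), −1.03 (CE against NC, 0 rises) and −1.09 (CEL against NC, 0 rises), and 0 fell in CEL against CE. With library size alone they were −0.81 (CE against LPS), −0.80 (CEL against LPS, 0 rises), −0.90 (CE against NC, 0 rises) and −0.96 (CEL against NC), and 1 fell in CEL against CE. The upper quartile factors moved the median of all genes by −0.13 in CEL against LPS, −0.28 in CE against NC and −0.25 in CEL against NC. The share of called genes that were higher then went from 48.8% to 37.2% in LPS against NC, from 54.1% to 38.7% in CE against NC and from 50.7% to 39.7% in CEL against NC. With library size alone it went from 37.2% to 47.4% in CEL against CE.

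With no filter on low counts, 4 fell in LPS against NC (median −0.0047), 0 rose in CEL against LPS (−0.78), 1 rose in CEL against CE (−0.16), 0 rose in CE against NC and 1 rose in CEL against NC. With only the compared groups in the fit, CEL against CE gave 1710 called genes, with 2 members higher and 0 lower. DESeq2 gave 0 rises in CEL against LPS and 1 fall in CEL against CE.

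Fewer genes passed with limma on TPM. On log2(TPM + 1), the called genes were 2963 (LPS against NC), 3586 (CE against LPS), 4984 (CEL against LPS) and 266 (CEL against CE), where the count fits gave 6458, 6972, 7867 and 3321. The members had 2 rises and 0 falls in LPS against NC (median 0.074), a median of −0.59 in CE against LPS, 0 rises in CEL against LPS (−0.55), 0 calls in CEL against CE (0.0049), 0 rises in CE against NC (−0.55), and 22 falls in CEL against NC (−0.48). On log2(TPM + 0.1), the called genes were 2951, 3545, 4978 and 225. The members had 1 rise and 0 falls in LPS against NC (0.0754), 0 rises in CEL against LPS (−0.57), 0 calls in CEL against CE (0.0056), 0 rises in CE against NC (−0.56) and a median of −0.51 in CEL against NC. The direction changed under both for WDR43 in LPS against NC (0.0087 and 0.009), NOB1 in CEL against LPS (0.0764 and 0.0778) and NOP2 in CEL against NC (0.0471 and 0.0485).

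Leaving out each library in turn gave 3 to 6 rises in LPS against NC, 0 to 1 in CEL against LPS, 2 to 6 in CEL against CE and 0 to 1 in CE against NC. It gave 0 to 11 falls in CEL against CE, whose called genes over the whole table numbered 2120 to 4066 and whose median ran from −0.13 to 0.0097. The medians ran from −0.79 to −0.67 in CE against NC and from −0.85 to −0.76 in CEL against NC. The log2 change of RRP1B in CE against NC was 0.14, from −0.88 (without CE 2) to 0.44 (without CE 1), and −0.88 without LPS 3, CE 2 and CEL 1, and RRP12 was −1.16 without those 3. Without those 3, 9 fell in CEL against CE and the median of CE against NC was −0.67. With the GC offset, 0 rose in CEL against LPS (median −0.80), 10 fell in CEL against CE and the median of CEL against NC was −0.73.

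With the replicate number as a block (the batch pairing), 2 members fell in CEL against CE. The block took 10 calls of members in all, each named above with its value, and changed no other call of a member.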

Other observations

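The snoRNA host genes, long transcripts whose introns release the small nucleolar RNAs that the snoRNP proteins bind, were measured beside them. All 13 were tested. In LPS against NC, 9 fell and none rose (edgeR quasi-likelihood test), where 23.5% of all tested genes were lower. SNHG29 was 329, 307 and 310 CPM in NC and 176, 168 and 171 CPM in LPS, and fell by 0.88 on the log2 scale (SE 0.06, adjusted p = 2.41e-07). In CE against LPS, 4 hosts rose and 5 fell, where 28.8% and 20.7% of all tested genes were called. SNHG3 was 38.7, 39.9 and 36.9 CPM in LPS and 9.55, 12.2 and 8.48 CPM in CE, a log2 change of −1.93 (3.82-fold lower, SE 0.13, adjusted p = 3.65e-07). ZFAS1 rose by 0.83, from 173, 179 and 163 CPM to 335, 279 and 299 CPM, and GAS5, SNHG29 and SNHG32 rose by 0.82, 0.61 and 0.76. ZFAS1 lies antisense to ZNFX1, and without the strand setting of the counting reads of the pair cannot be told apart. SNHG1, SNHG8, SNHG12 and SNHG15 fell by 0.30 to 0.72. SNHG29, SNHG3 and ZFAS1 passed in all 17 alternatives of these comparisons. In CEL against CE, 4 hosts rose and 1 fell (8.78% and 14.8% of all tested genes), led by SNHG15 (0.50) and SNHG29 (−0.28). SNHG29 did not pass there without CE 1, CE 3, CEL 1 or CEL 2 (adjusted p up to 0.144).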
